A study of Mus musculus with 12 samples.

Results

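Lyrm7, Anxa6, Mfap3 and Rnf187 are 4 genes that lie on mouse chromosome 11 within 10 Mb of Sqstm1, the gene that encodes p62. They were chosen as genes of that region that differ by p62 genotype. All 4 read lower on the arrays of mice without p62. Each has 1 probe set with a single gene symbol in the platform table, so that they are 4 of the 19248 genes measured, and 4 of the 227 genes measured within 10 Mb of Sqstm1 (Sqstm1 included). The study crossed p62 knockout mice with Huntington's disease (HD) transgenic mice and measured striatal RNA at 8 weeks on Affymetrix arrays, with 3 mice in each of 4 groups. NT_p62WT mice carry neither the HD transgene nor the knockout, NT_p62KO mice lack p62 alone, HD_p62WT mice carry the transgene with normal p62, and HD_p62KO mice (HD;p62-_-) carry the transgene and lack p62. The HD construct, its promoter, the design of the p62 deletion, the embryonic stem cell strain and the number of backcrosses were not stated in the labels. The genes were chosen by their log2 values in knockout against normal p62 mice, so that difference is described here without a test. The difference between HD and non-transgenic mice, as the mean over both p62 genotypes, was not used and is tested. Within each p62 genotype it shares group means with the differences that chose the genes, and those tests carry that limit.

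p62 is a receptor of selective autophagy that binds ubiquitin and LC3, gathers ubiquitinated proteins into bodies, and holds Keap1 away from the transcription factor Nrf2. Mutant huntingtin forms nuclear inclusions that contain ubiquitin and p62, and the striatum is the region most affected in the disease. In a knockout made by gene targeting in embryonic stem cells of one strain and then crossed to another, DNA of the first strain stays linked to the deleted gene for many generations. Genes near the deletion can then differ between knockout and normal mice through their own alleles.

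Lyrm7 encodes a mitochondrial chaperone of the LYR motif family that holds the Rieske iron-sulfur protein (Uqcrfs1) before it enters respiratory complex III. Anxa6 encodes annexin A6, which binds phospholipid membranes in the presence of calcium and takes part in endosome traffic and membrane repair. Mfap3 encodes a protein that was described with elastin-associated microfibrils. Rnf187 (also called RACO-1) encodes a RING finger ubiquitin ligase that acts as a coactivator of c-Jun in the AP-1 transcription factor.

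The promoters of the genes are shown because the genes read lower together in the knockouts. RefSeq's promoter table (build GRCm38.p6) held 3 of the 4 genes. Each run is printed 5′ to 3′ on the strand of the gene, from 250 bases before to 50 bases after the start, and capitals mark every match to 4 searched motifs. Lyrm7 lies at chr11:54860548-54860847 on the minus strand, Mfap3 at chr11:57518415-57518714 on the plus strand and Rnf187 at chr11:58938857-58939156 on the minus strand.
Lyrm7: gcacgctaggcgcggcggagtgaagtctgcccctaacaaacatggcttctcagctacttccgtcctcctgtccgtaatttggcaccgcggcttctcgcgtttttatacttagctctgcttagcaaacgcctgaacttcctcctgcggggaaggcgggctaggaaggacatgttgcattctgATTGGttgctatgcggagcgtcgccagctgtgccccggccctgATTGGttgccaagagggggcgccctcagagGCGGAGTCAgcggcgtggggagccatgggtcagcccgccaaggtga
Mfap3: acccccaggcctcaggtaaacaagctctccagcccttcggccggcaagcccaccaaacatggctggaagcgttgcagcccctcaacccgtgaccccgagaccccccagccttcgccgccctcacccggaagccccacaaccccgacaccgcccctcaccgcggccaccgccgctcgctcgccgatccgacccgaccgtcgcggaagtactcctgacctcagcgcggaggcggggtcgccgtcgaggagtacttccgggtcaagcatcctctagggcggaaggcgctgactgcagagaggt
Rnf187: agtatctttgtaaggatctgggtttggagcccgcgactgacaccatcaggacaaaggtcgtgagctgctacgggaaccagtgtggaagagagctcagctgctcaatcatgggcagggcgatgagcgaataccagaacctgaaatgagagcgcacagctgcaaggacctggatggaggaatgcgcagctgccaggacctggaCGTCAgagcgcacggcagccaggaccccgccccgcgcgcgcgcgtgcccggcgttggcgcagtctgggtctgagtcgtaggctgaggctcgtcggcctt
The motifs, searched on both strands, were the core of the antioxidant response element that Nrf2 binds (TGACNNNGC), the AP-1 site (TGANTCA), the core of the cAMP response element (TGACG) and the CCAAT box (CCAAT). The Lyrm7 run held 1 match to the antioxidant response element core on the reverse strand, GCGGAGTCA, which begins at base 255 of the run, just after the transcription start. Such a match stood in 12.4% of all 32851 promoters. The Lyrm7 run also held the CCAAT box on the reverse strand at bases 182 and 225, and 37.4% of promoters held at least 1. The Rnf187 run held the cAMP response element core on the reverse strand at base 202, as did 20.8% of promoters, and the Mfap3 run held none of the 4 motifs. No AP-1 site, found in 7.81% of promoters, was in the 3 runs. G and C made up 60.7% of the Lyrm7 run, 69% of the Mfap3 run and 62% of the Rnf187 run, against a median of 52.7% for all promoters. The runs held 22, 31 and 24 CpG dinucleotides respectively, against a median of 7. A match of letters is a description and no evidence of binding.

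Sqstm1 itself was read first, as a check of the genotype labels. Its log2 values were 11.19, 11.35 and 11.24 in NT_p62WT and 8.44, 8.52 and 8.49 in NT_p62KO. They were 11.75, 11.26 and 11.51 in HD_p62WT and 8.92, 9.13 and 9.02 in HD_p62KO. All 6 knockouts lay below all 6 mice with normal p62, and the mean over NT and HD of the knockout minus normal difference was -2.63 ± 0.076 (SE), or 16.2% of the normal level. Which exons the probe set covers relative to the deletion was not analysed here. The 11 measured markers of medium spiny neurons, the main striatal cell type, had mean log2 values over all mice from 8.33 for Pdyn to 12.84 for Penk. Pde10a stood at 11.47 and Drd2 at 11.04. For the mean HD difference 10 of them passed as lower and 1 as higher (median -0.64), where 15% of all genes passed as lower and 19.9% as higher. The array medians ran from 7.70 to 7.73, and arrays of the same group correlated at 0.990 to 0.996 over all genes.

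Lyrm7 showed the clearest difference of the 4 genes. The values were 7.76, 8.05 and 8.18 in NT_p62WT and 7.12, 6.98 and 6.77 in NT_p62KO. In the HD transgenic mice they were 8.26, 7.92 and 7.63 with normal p62 and 6.92, 6.85 and 6.68 without it. Every knockout therefore read below every mouse with normal p62, with a gap of 0.50 on the log2 scale between the highest knockout and the lowest normal mouse. The group means were 8.00 ± 0.22 (SD, n = 3), 6.96 ± 0.18, 7.94 ± 0.31 and 6.82 ± 0.13 in NT_p62WT, NT_p62KO, HD_p62WT and HD_p62KO. The knockout minus normal difference was -1.04 ± 0.16 (SE) without the HD transgene and -1.12 ± 0.16 with it. Their mean, -1.08 ± 0.11, left 47.4% of the normal level. In bulk tissue, fewer cells that express a gene and less RNA per cell cannot be told apart.

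Anxa6 followed with the same arrangement of groups and a smaller difference. The values were 9.29, 9.48 and 9.59 in NT_p62WT and 9.04, 9.17 and 8.71 in NT_p62KO. They were 9.62, 9.52 and 9.33 in HD_p62WT and 8.98, 9.08 and 8.92 in HD_p62KO. The knockouts again lay below all mice with normal p62, here by a gap of 0.12, with NT_p62KO replicate 3 the lowest of all 12 mice. The group means, in the order given for Lyrm7, were 9.45 ± 0.15 (SD, n = 3), 8.97 ± 0.24, 9.49 ± 0.15 and 8.99 ± 0.081. The difference was -0.48 ± 0.12 (SE) without and -0.50 ± 0.12 with the HD transgene, and the mean of -0.49 ± 0.086 left 71.3% of the normal level.

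Mfap3 was lower in the knockouts without a clean separation. The values were 8.95, 9.03 and 9.14 in NT_p62WT and 8.64, 8.77 and 8.63 in NT_p62KO, which do not overlap. In HD_p62WT they were 9.17, 9.18 and 9.02 and in HD_p62KO 8.80, 9.08 and 8.86, where replicate 2 of the knockouts lies above replicate 3 of the controls. The group means were 9.04 ± 0.093 (SD, n = 3), 8.68 ± 0.076, 9.13 ± 0.088 and 8.92 ± 0.15. The difference was -0.36 ± 0.087 (SE) without and -0.21 ± 0.087 with the transgene, and their mean was -0.28 ± 0.062, or 82.1% of the normal level.

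Rnf187 had the smallest difference. The values were 11.06, 10.91 and 10.99 in NT_p62WT and 10.71, 10.74 and 10.68 in NT_p62KO, again without overlap. In the HD transgenic mice they were 11.06, 10.85 and 10.89 with normal p62 and 10.79, 10.89 and 10.82 without it, and these groups overlap. The group means were 10.99 ± 0.073 (SD, n = 3), 10.71 ± 0.030, 10.93 ± 0.11 and 10.84 ± 0.051. The difference was -0.28 ± 0.072 (SE) without and -0.10 ± 0.072 with the transgene. The latter was -0.03 when HD_p62WT replicate 1 was left out, a shift larger than the value that is left. The mean of both differences was -0.19 ± 0.051, or 87.7% of the normal level.

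**Figure D1:**
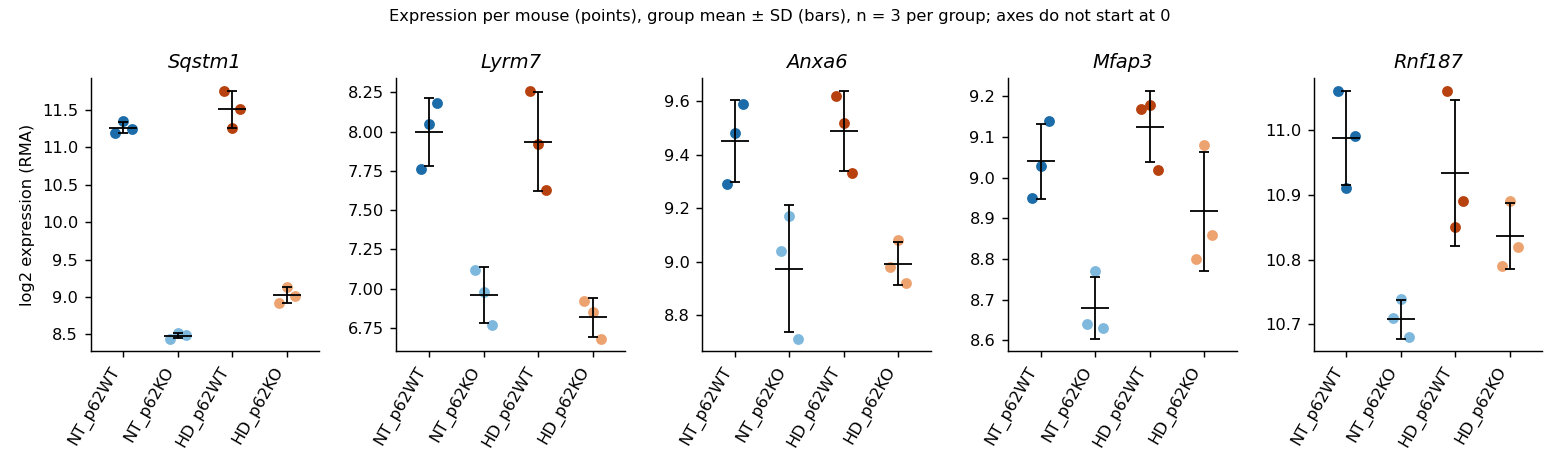
Log2 value of each gene in each of the 12 mice, by group, with a bar at the group mean; each panel has its own scale. Knockouts and mice with normal p62 do not overlap for Sqstm1, Lyrm7 and Anxa6, and they overlap for Mfap3 and Rnf187.

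Separation of the 6 knockouts from the 6 mice with normal p62 was rare on the arrays. It occurred in 18 of 19248 genes (0.0935%), of which 8 (0.0416%) were lower in every knockout. Among the 227 genes within 10 Mb of Sqstm1 it occurred in Sqstm1, Lyrm7 and Anxa6, 3 genes. By the limma test with Benjamini-Hochberg adjustment over all genes, 2 of 19248 genes (0.0104%) passed 0.05 for the mean p62 difference, and both are on this chromosome: Sqstm1 and Lyrm7. Of the 4 genes Lyrm7 alone thus lay inside the threshold, at an adjusted p of 0.00382 that describes the choice and is no test. Anxa6 was the first gene outside it at 0.643, and Mfap3 and Rnf187 stood at 1.00, so that the description of all 4 as genes that differ by p62 genotype holds after adjustment for Lyrm7 and was not met by the other 3. In each HD background taken alone, 1 gene passed (0.0052%), which was Sqstm1. Ordered by unadjusted p for the mean difference, Sqstm1, Lyrm7 and Anxa6 led all genes in that order, Mfap3 was number 10 and Rnf187 number 35. Ordered by size, Lyrm7 was number 4, Anxa6 number 40, Mfap3 number 184 and Rnf187 number 589. The 4 genes were chosen by this difference and Sqstm1 is the deleted gene. Their separation and their ranks therefore describe the choice too and are no test.

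The 4 genes lie on the same side of Sqstm1. Their nearest edges are 4.62 Mb away for Lyrm7, 4.77 Mb for Anxa6, 7.31 Mb for Mfap3 and 8.72 Mb for Rnf187 in the gene table (GRCm38.p6). Lyrm7 and Anxa6 are close neighbours, 0.118 Mb apart with 3 measured genes between them. In the mean over NT and HD mice the 3 genes stood at or above 0: the knockout minus normal value was 0.01 ± 0.078 (SE) for Hint1, 0.19 ± 0.20 for Gpx3 and 0.05 ± 0.048 for Tnip1. The sign turned between backgrounds for Hint1 (-0.06 ± 0.11 in NT, 0.09 ± 0.11 in HD) and Gpx3 (-0.17 ± 0.28 in NT, 0.56 ± 0.28 in HD), and Tnip1 was above 0 in both. Hint1 encodes a nucleotide hydrolase, Gpx3 a secreted glutathione peroxidase and Tnip1 an inhibitor of NF-κB signalling that binds ubiquitin. The gene on the other side of Lyrm7, Cdc42se2, stood at -0.05 ± 0.063, and that on the other side of Anxa6, Ccdc69, at 0.19 ± 0.098. By this mean the lower readings of Lyrm7 and Anxa6 lie among measured neighbours at or above the normal level or within their error of it.

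Mfap3 and Rnf187 lie farther out, and 38 measured genes separate them. Fam114a2, next to Mfap3 on the side of Sqstm1, stood at -0.18 ± 0.075 (SE), and Galnt10, which encodes an enzyme that starts O-linked glycosylation, stood at 0.10 ± 0.056 on the far side. The genes next to Rnf187 were Btnl10 at -0.05 ± 0.064 and the histone gene H2bu2 at 0.04 ± 0.056. The genes next to Sqstm1 itself were Mrnip at 0.17 ± 0.067, with 0.04 in NT and 0.29 in HD mice, and Mgat4b at -0.04 ± 0.056. Knockouts and mice with normal p62 overlapped in all 10 of these flanking genes. They did so in all but 0.0935% of the genes measured, so the overlap does not set the flanking genes apart.

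**Figure D2:**
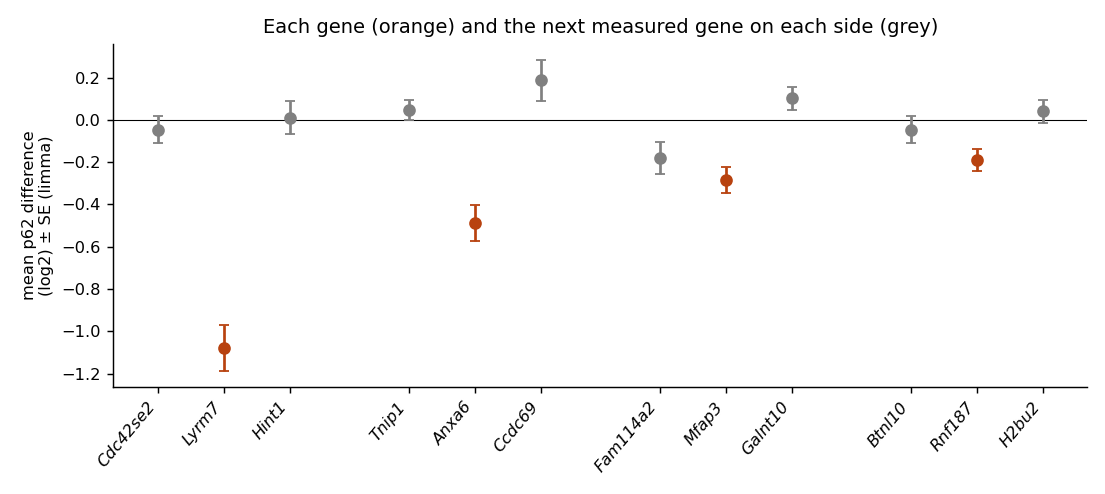
Mean knockout minus normal p62 difference (log2, with SE) of each of the 4 genes and of the next measured gene on each side. Lyrm7 at -1.08 and Anxa6 at -0.49 stand below their flanking genes, which run from -0.05 to 0.19.

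Over the wider region, differences as large were few. Without Sqstm1 and the 4 genes, 222 genes were measured within 10 Mb, of which 121 were lower and 101 higher in the knockouts, with a median difference of -0.0032 against -0.0042 for all genes. None of the 222 passed the adjusted threshold, 14 (6.31%) had an unadjusted limma p under 0.05, and the share over all genes was 2.69%. The share was 5.84% of 154 genes on the side of the 4 genes, 7.35% of 68 on the other side, 4.78% of 209 genes at 10 to 20 Mb, 2.59% of 1081 on the rest of chromosome 11 and 2.6% of 17681 on other chromosomes. It was uneven within the region: 0 of 75 genes in the first 5 Mb on the side of the 4 genes, where Lyrm7 and Anxa6 lie, and 9 of 79 genes (11.4%) from 5 to 10 Mb, where Mfap3 and Rnf187 lie. On the other side it was 3 of 48 genes (6.25%) in the first 5 Mb and 2 of 20 (10%) from 5 to 10 Mb. The 4 genes, chosen by this difference, are left out of these counts. These shares are descriptions, since genes share arrays and mice. Of the 10 genes with the smallest p on the arrays, the 4 on chromosome 11 were Sqstm1, Lyrm7, Anxa6 and Mfap3, the deleted gene and 3 that were chosen by this difference, so nothing about the region follows from that count.

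Other genes of the region with a difference of at least 0.2 on the log2 scale went both ways. The mean difference was below 0 for Gabra6 at -0.21, Sap30l at -0.25, Zfp39 at -0.22 and Pemt at -0.26, and above 0 for Pttg1 at 0.51, H2aw at 0.39 and Mir340 at 0.26. Pemt stood at -0.51 in NT and 0.0031 in HD mice, and Zfp39 at -0.08 in NT and -0.37 in HD mice. Pttg1 encodes securin, which holds back sister chromatid separation, and Gabra6 a GABA-A receptor subunit. Besides Anxa6, Mfap3 and Rnf187, Mir340 (0.26 ± 0.063 SE, with 0.14 in NT and 0.39 in HD mice) lay nearest outside the threshold. Zfp39 (-0.22 ± 0.063) and Mrpl55 (-0.19 ± 0.056), a mitochondrial ribosomal protein gene, followed Rnf187 and were chosen after their values were seen.

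**Figure D3:**
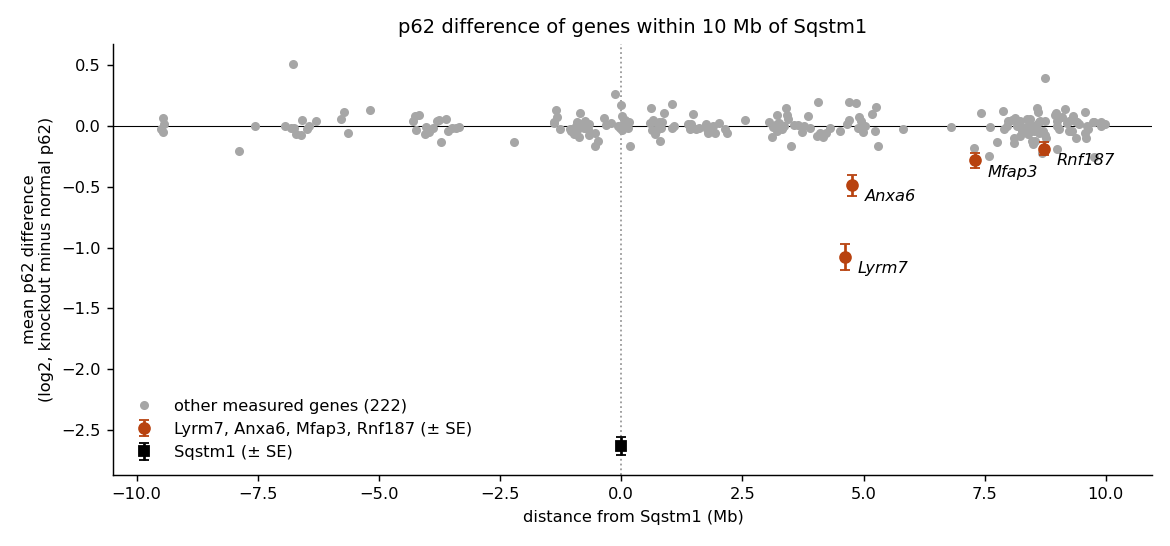
Mean knockout minus normal p62 difference (log2) of the measured genes by distance of their nearest edge from Sqstm1 (Mb), with the 4 genes and Sqstm1 named. Lyrm7 and Anxa6 stand below a field of genes near 0, and genes above 0.2 and below -0.2 lie on both sides of Sqstm1.

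All 6 knockouts carry both the loss of p62 and whatever DNA is linked to the targeted allele, and no group carries one without the other. An effect of p62 on these 4 genes, an effect of linked alleles on their expression and a difference in how linked alleles bind the probes cannot be told apart in these samples. The position near Sqstm1 does not separate them, because it was part of the choice of the genes. The p62 differences of the 4 genes do not separate them either, since the genes were chosen by those values. In the mean over NT and HD mice the genes directly flanking Lyrm7 and Anxa6 stood between -0.05 and 0.19.

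Choroid plexus markers, from tissue of the ventricle that borders the striatum, also read higher in the knockouts. All 8 measured markers were higher in the knockouts by 0.30 to 1.27 (median 0.47), 0 passed the adjusted threshold and 5 had an unadjusted limma p under 0.05. The shares over all genes were 0.0104% and 2.69%. Their mean per mouse, centred over all mice, ran from -0.63 to -0.32 in NT_p62WT, 0.29 to 0.54 in NT_p62KO, -0.70 to 0.43 in HD_p62WT and -0.68 to 1.14 in HD_p62KO. With that mean as a covariate the mean p62 difference was -1.15 for Lyrm7, -0.55 for Anxa6, -0.37 for Mfap3 and -0.23 for Rnf187, as large as without it or larger. The p62 difference of the medium spiny neuron markers had a median of -0.03, with 0 of 11 called.

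The HD transgene, tested as the mean over both p62 genotypes, did not pass the threshold for any of the 4 genes, where 6728 of 19248 genes (35%) did, 19.9% higher and 15% lower. Lyrm7 differed by -0.10 ± 0.11 (SE) between HD and non-transgenic mice (95% interval -0.34 to 0.14, limma adjusted p = 0.484). Anxa6 differed by 0.03 ± 0.086 (-0.16 to 0.22, limma adjusted p = 0.805), with the sign turned under quantile normalization, with array weights and with the spread of each array as a covariate. Rnf187 differed by 0.04 ± 0.051 (-0.07 to 0.15, limma adjusted p = 0.579), and its sign turned with the spread of each array as a covariate. The intervals leave room for changes of up to about these bounds, and a p that misses the threshold does not show that the genes are unaffected. Sqstm1 differed by 0.39 ± 0.076 with the transgene (limma adjusted p = 0.00293). In mice with an intact gene its difference was 0.24 ± 0.11 and did not pass (limma adjusted p = 0.179), and in the knockouts what the probe set still reads rose by 0.54 ± 0.11 (limma adjusted p = 0.0076). With the spread of each array as a covariate the mean difference was 0.25 and did not pass (limma adjusted p = 0.0804). That spread, an SD of log2 values, ran from 1.79 to 1.87 in HD arrays and from 1.73 to 1.82 in non-transgenic arrays. The covariate thus varies in part with the transgene, and its fits can also take away some of an HD difference.

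Mfap3 stood nearest to the threshold. It was higher in HD mice by 0.16 ± 0.062 (SE, 95% interval 0.03 to 0.30), with a limma adjusted p of 0.0595. The adjusted p was 0.0351 without HD_p62KO replicate 1 and 0.0477 without NT_p62KO replicate 2, and reached 0.140 when another mouse was left out, so that its side of the threshold turned with single mice. Within the knockouts alone the difference was 0.24 ± 0.087 (limma adjusted p = 0.0692), where 21.7% of genes passed. With normal p62 it was 0.09 ± 0.087 (limma adjusted p = 0.57), where 7.1% passed. Both values use group means that also entered the p62 differences by which Mfap3 was chosen, so they are not independent of the choice.

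The other 3 genes were also tested within each p62 genotype. Lyrm7 differed between HD and non-transgenic mice by -0.06 ± 0.16 (SE) with normal p62 and by -0.14 ± 0.16 without it (limma adjusted p = 0.837 and 0.51). Anxa6 stood at 0.04 and 0.02 (limma adjusted p = 0.873 and 0.916) and Rnf187 at -0.05 and 0.13 (limma adjusted p = 0.675 and 0.205). None of the 4 genes passed in either genotype in this fit. These tests are not independent of the choice of the genes. For Mfap3 without p62 the mean subtracted, 8.68 in NT_p62KO, is among the values that chose it. Mfap3 without p62 did pass with array weights (0.24, limma adjusted p = 0.0322), without HD_p62KO replicate 1 (0.29, limma adjusted p = 0.0408) and with the choroid plexus covariate (0.26, limma adjusted p = 0.0312).

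How far the HD difference itself varied with p62 is described by the difference of both HD differences, knockout minus normal. It was -0.08 ± 0.22 (SE) for Lyrm7, -0.02 ± 0.17 for Anxa6, 0.15 ± 0.12 for Mfap3 and 0.18 ± 0.10 for Rnf187. The 95% intervals were -0.56 to 0.40, -0.39 to 0.36, -0.12 to 0.42 and -0.04 to 0.40 in that order. By limma 0 of 19248 genes (0%) passed, and 665 (3.45%) had an unadjusted p under 0.05. The same contrast is the p62 difference in HD minus that in NT mice. It is built from the values by which the genes were chosen, so no p is given for them. Whether the smaller Mfap3 and Rnf187 differences in HD mice differ from those in NT mice was not tested.

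**Figure D4:**
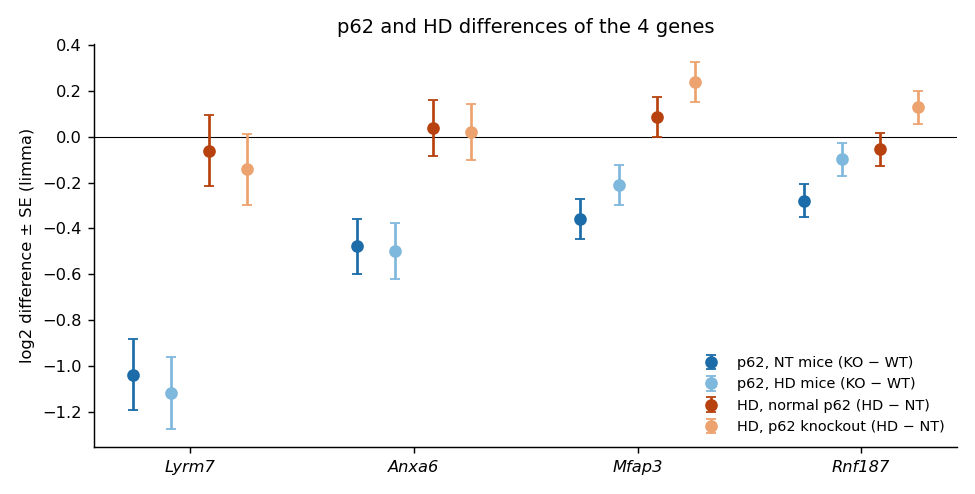
Knockout minus normal p62 differences and HD minus non-transgenic differences (log2, with SE) of the 4 genes. The p62 differences of Lyrm7 (-1.04 and -1.12) and Anxa6 (-0.48 and -0.50) are alike in NT and HD mice, and the HD differences run from -0.14 for Lyrm7 to 0.24 for Mfap3, both without p62.

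Lyrm7 and Anxa6 tracked each other among mice of the same group as well as between groups. Over all 12 mice Pearson's r of their log2 values was 0.94, higher than that of any other gene with either, but the mice fall into knockouts and normal mice, which sets much of this value. After each group's mean was taken away, r was 0.81. By that measure Anxa6 was number 19 of all genes for Lyrm7, and Lyrm7 number 119 for Anxa6, so that many other genes vary as much together with each. The deviations share arrays, and no p is given. Between Anxa6 and Mfap3 r of the deviations was 0.72, between Lyrm7 and Mfap3 0.49 and between Lyrm7 and Rnf187 0.33.

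**Figure D5:**
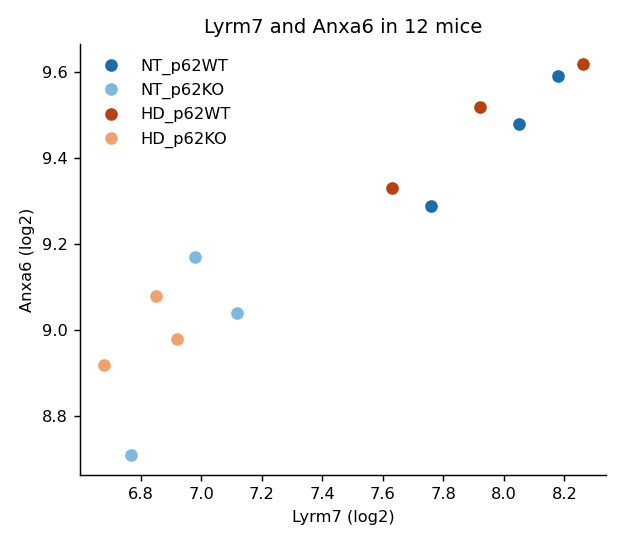
Log2 value of Anxa6 against that of Lyrm7 in each of the 12 mice, coloured by group. Knockouts fill the lower left and mice with normal p62 the upper right, and in both normal groups the mouse with more Lyrm7 has more Anxa6.

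The genes most like each of the 4 over the 12 mice included genes of the same region and genes of other chromosomes. For Lyrm7 they were Anxa6 (r = 0.94), Sqstm1 (0.92) and Dcdc2c (0.85), and for Anxa6 they were Lyrm7, Sqstm1 (0.88) and the ribosomal protein gene Rps29 (0.87). For Mfap3 they were Mrpl55 (0.89), Sin3a (0.87), a scaffold of histone deacetylase complexes, and Fam117b (0.86). For Rnf187 they were Mrpl55 (0.88), Cldn12 (0.86) and the fructose transporter gene Slc2a5 (0.85). Mrpl55, the first for both, lies within 10 Mb of Sqstm1 and had a difference of -0.22 in NT and -0.16 in HD mice.

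Known partners and relatives of the 4 genes gave no call for p62. In the 5 lists that go with them, 0 of 60 measured genes passed for the mean p62 difference (0.0104% of all genes did), and 0 had an unadjusted limma p under 0.05. The list medians were -0.02 for complex III, -0.01 for the other LYR motif proteins, 0.04 for the other annexins, -0.0017 for microfibril and elastic fibre genes and 0.0012 for AP-1 and JNK genes, against -0.0042 for all genes. Uqcrfs1, the client of Lyrm7, stood at 0.02 ± 0.051 (SE) between knockouts and normal mice, with its 12 mice between 8.62 and 8.88.

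For the HD transgene the counts of the same lists stand beside the share over all genes. There 35% passed, 19.9% higher and 15% lower, and the median of all genes was -0.02. No list was tested as a set, and none is shown to change more than genes at large. Of 14 complex III genes 5 rose and 1 fell (median 0.10). The assembly factor Uqcc1 rose by 0.39 ± 0.074 (SE, limma adjusted p = 0.00262), the core subunit Uqcrc2 by 0.16 and the subunit Uqcrb by 0.23. Ttc19, which clears fragments of the Rieske protein, fell by 0.15, and Uqcc2 at 0.05 ± 0.060 did not pass. Of 10 LYR motif genes 3 rose and 0 fell (median 0.17): Lyrm1 by 0.26, Lyrm9 by 0.38 and the complex I subunit Ndufa6 by 0.20, while the complex I subunit Ndufb9 stood at 0.02 ± 0.054. With the spread of each array as a covariate 0 complex III genes rose and 2 fell, and 0 LYR motif genes passed. This covariate varies in part with the transgene itself. With single mice left out, 3 to 7 complex III genes were higher, 3 without HD_p62KO replicate 2, HD_p62WT replicate 1 or 3, NT_p62KO replicate 3 or NT_p62WT replicate 1 or 3, and 3 to 4 LYR motif genes were higher. Uqcc1, Uqcrc2, Uqcrb, Lyrm1, Lyrm9 and Ndufa6 passed in all 12 of these fits and Ttc19 in 11, missing without NT_p62WT replicate 3.

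The counts of the other 3 lists are read against the same shares of all genes, 19.9% higher and 15% lower. Of 11 annexins 2 rose with the transgene and 0 fell (median 0.06), Anxa5 by 0.51 ± 0.076 (SE, limma adjusted p = 0.000725) and Anxa4 by 0.29. Anxa7 at 0.31 ± 0.13 did not pass. Of 13 microfibril and elastic fibre genes 0 rose and 5 fell (median -0.11), with Fbln5 at -0.43, Mfap5 at -0.30, Emilin1 at -0.25 and Mfap4 at -0.16, and Eln at -0.07 ± 0.073 did not pass. Of 12 AP-1 and JNK genes 1 rose and 3 fell (median -0.11), namely the kinase gene Mapk9 at 0.20 and the AP-1 genes Fosl2 at -0.26, Fosl1 at -0.21 and Jund at -0.19, and Mapk10 at 0.05 ± 0.054 did not pass. With the spread of each array as a covariate 1 annexin rose, 1 microfibril gene fell and 1 AP-1 gene fell. With single mice left out, 1 to 3 annexins were higher: Anxa5 passed in all 12 fits and Anxa4 in 3, and Anxa4 missed with array weights too (0.20, limma adjusted p = 0.101). Anxa7 passed in 2 of the 12. The count of lower microfibril genes ran from 5 down to 1, without HD_p62WT replicate 3 or NT_p62WT replicate 3, and was 2 without HD_p62KO replicate 2 or 3, HD_p62WT replicate 1 or NT_p62KO replicate 3. Fbln5 passed in all 12 fits, Mfap4 in 9, Mfap5 in 7 and Emilin1 in 5. Of the AP-1 and JNK genes, Fosl1 and Fosl2 passed in all 12, Mapk9 in 5 and Jund in 3.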

How the data were processed

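Total striatal RNA of 12 mice was labelled and hybridised to whole-transcript arrays (Affymetrix). The authors' deposited values are on a log2 scale, 1 per probe set, and RMA is the tool that the submitters' processing notes name. Its version, any filter and the genome build are not stated there. RMA is meant to make arrays alike in distribution, so a change common to most genes could be hidden. The deposited arrays still differed in spread, with an SD of log2 values from 1.73 in NT_p62KO replicate 3 to 1.87 in HD_p62KO replicate 2. Titles call the samples biological replicates, and p-values measure the spread between them.

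Of 24055 probe sets 19942 had 1 gene symbol, 1225 several and 2888 were not listed. Of the first, 19886 matched RefSeq's gene table (GRCm38.p6). The brightest probe set was taken for each of 470 genes with several, which left 19248 genes. Group means were fitted over all 12 arrays with limma 3.58.1 in R 4.3.3 (residual degrees of freedom 8), with Benjamini-Hochberg adjustment over all genes and a threshold of 0.05. The fit was tested on simulated data. Mice with the same replicate number were not treated as paired in the main fit. Their deviations from group means correlated across groups at -0.34 to 0.21, which cannot exclude a shared batch.

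The 4 genes and the gene lists were chosen with earlier results of these data known. Besides the 4 genes and Sqstm1, the text names genes within 10 Mb past the threshold or the 4 nearest outside it, the next measured genes, the 3 most alike genes and, per list, up to 4 genes of smallest p past the threshold and the brightest that missed it. Other genes, those of at least 0.2 in the region among them, were named after their values were seen. Alternatives were a replicate block, other normalizations, filters, variances and weights, all probe sets, other thresholds and windows, each mouse left out and the compared groups alone. Choroid plexus marker mean and array spread as covariates were added after seeing the data. Array spread varied in part with the HD transgene.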

Additional observations from a re-analysis of the deposited data

How the results depend on the processing

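Lyrm7 and Sqstm1 were the genes within 10 Mb called for p62 under every setting that fitted all groups. The smallest limma adjusted p over the p62 contrasts in NT, in HD and their mean ran from 0.00122 to 0.0275 for Lyrm7 and from 0.174 to 1.00 for Anxa6. Lyrm7 was chosen by these values, so its calls describe the choice and are no test. The windows of 5 and 20 Mb reused the main fit and both hold Lyrm7, so its call there was fixed, and they added no other gene. With only the 2 groups compared, Lyrm7 was not called. The mean p62 difference, over mice left out in turn, ran from -1.16 to -1.0 for Lyrm7, -0.54 to -0.42 for Anxa6, -0.33 to -0.26 for Mfap3 and -0.21 to -0.16 for Rnf187. The count of genes called for p62 in NT mice was 1, and 4 with only the 2 groups compared (F5, Kcnj13, Kl and Sqstm1). In HD mice it was 1, and 2 without the dimmest 25th percentile, with trended and robust variances and with array weights, 3 at an adjusted p of 0.1, and 1 to 2 with a mouse left out (2 without HD_p62WT replicate 3 or NT_p62WT replicate 1).

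With the replicate block, 709 genes in place of 1366 were called for HD with normal p62, and the block changed no call of the 4 genes, while Jund no longer passed (adjusted p = 0.0758 by limma). That count was 4625 with array weights, 276 at 0.01, 2799 at 0.1, 649 with the choroid plexus covariate and 398 to 2040 with a mouse left out, 398 without HD_p62WT replicate 3, 421 without its replicate 1, and 441, 845 and 440 without NT_p62WT replicates 1, 2 and 3. For HD without p62, 4172 became 6663 with array weights, 969 at 0.01, 6465 at 0.1, 1742 with only the 2 groups, 779 with array spread and 1273 to 5128 with a mouse left out, 1273 without HD_p62KO replicate 2, 1795 without its replicate 3 and 1876 without NT_p62KO replicate 3. For the mean HD difference, 6728 became 3224 at 0.01 and 2223 with array spread. The difference of the HD differences had 0 to 1 genes called with a mouse left out (1 without NT_p62WT replicate 2).

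Mfap3's mean HD difference passed without the dimmest genes (0.16, adjusted p = 0.0464 by limma), with trended and robust variances (0.16, 0.0478) and with array weights (0.15, 0.0404), and ran from 0.12 to 0.19 with a mouse left out. Anxa6's turned to -0.032 with quantile normalization, -0.029 with array weights and -0.10 with array spread, and ran from -0.037 to 0.078 with a mouse left out. Its HD difference turned to -0.056 with normal p62 (array spread) and to -0.044 at the lowest with a mouse left out, and without p62 to -0.066 (quantile), -0.0024 (equal medians), -0.068 (array weights), -0.15 (array spread) and -0.11 at the lowest with a mouse left out. Lyrm7's with normal p62 ran from -0.22 to 0.094 with a mouse left out. With array spread the mean HD difference turned to -0.021 for Rnf187, -0.077 for Uqcc2, -0.011 for Anxa7, 0.11 for Eln, -0.029 for Mapk10 and -0.092 for Ndufb9, which also turned to -0.025 (quantile) and -0.00030 (equal medians) and ran from -0.0057 to 0.047 with a mouse left out. The cause was not tested. The number of arrays, 3 per group, limits the precision, and detection above background was not used here.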

Other observations

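Of 4113 probe sets with several gene symbols or none, 0 passed for the mean p62 difference by limma and 134 had an unadjusted p under 0.05, so that no unnamed probe set joined Sqstm1 and Lyrm7.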
